A study of Mus musculus with 2 samples.

Results

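The Mir148/Mir152 and Mir101 families were read in forebrain of mouse embryos of strain B6NCrl at embryonic day 16.5, as 5 microRNA (miRNA) genes of 1973 genes counted. They are Mir148a, Mir148b and Mir152, and Mir101a and Mir101b, found by Ensembl gene identifier in GENCODE M21, and all 5 had a row and counts in both libraries. The 2 libraries are biological replicates of a single group. Total RNA came from pools that mixed male and female embryos, 41 of them for replicate 2 and a number not stated for replicate 1, and the labels name no altered allele and no treatment. The design therefore holds no contrast of conditions, and the questions are at which level each family gene stood and how far the 2 pools agreed. In bulk tissue, more cells that express a miRNA and more of it per cell cannot be told apart.

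A miRNA is cut from a hairpin precursor by Drosha and Dicer, and one arm of the hairpin is loaded on an Argonaute protein. The seed, bases 2 to 8 of the mature miRNA, pairs with sites that lie mostly in the 3′ untranslated region (UTR) of target mRNAs and lowers their output. Dnmt1, the maintenance DNA methyltransferase, is a known target of miR-148 and miR-152 in mammalian cells. Ezh2, the histone H3 lysine 27 methyltransferase of Polycomb repressive complex 2, is a known target of miR-101. In the embryonic forebrain, neural progenitors depend on both kinds of chromatin silencing as they pass from making neurons to making glia.

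The mature sequences are shown so that the seeds within each family can be compared. They are RefSeq entries on GRCm38.p6, written 5′ to 3′ with the seed in capitals, and a match was found for all 5 genes.
mmu-miR-148a-3p: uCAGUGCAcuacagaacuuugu
mmu-miR-148b-3p: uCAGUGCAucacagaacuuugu
mmu-miR-152-3p: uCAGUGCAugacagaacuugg
mmu-miR-101a-3p: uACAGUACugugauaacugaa
mmu-miR-101b-3p: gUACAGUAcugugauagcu

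The Mir148a, Mir148b and Mir152 hairpins gave the same 3p seed, CAGUGCA, and no other of the 1679 mature miRNAs in the table carried it. Counted from the 5′ end of miR-148a-3p, miR-148b-3p differed by C9U and U10C. Counted from the same end, miR-152-3p differed by C9U, U10G and U20G and was 1 base shorter. All of these differences lie 3′ of the seed.

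The Mir101 arms differed by A16G, counted from the 5′ end of miR-101a-3p. The annotated 5′ end of miR-101b-3p lies 1 base further upstream, so the seed read from its annotation is UACAGUA and that of miR-101a-3p is ACAGUAC. Neither seed occurred in any other mature miRNA of the table. The deposited counts are per gene, so neither the arm nor the 5′ end of a read can be read from them.

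The opposite arms, shown for the contrast with the 3p arms, had less in common within each family.
mmu-miR-148a-5p: aAAGUUCUgagacacuccgacu
mmu-miR-148b-5p: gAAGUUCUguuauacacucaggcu
mmu-miR-152-5p: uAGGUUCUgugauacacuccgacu
mmu-miR-101a-5p: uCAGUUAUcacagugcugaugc
mmu-miR-101b-5p: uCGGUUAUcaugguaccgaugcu

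Among the 5p arms, miR-148a-5p and miR-148b-5p shared the seed AAGUUCU, and the other 5p arms had seeds of their own. The pair from Mir101a and Mir101b differed by 5 substitutions over 22 aligned bases. Of these, A3G lies in the seed.

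How far a read can be placed on a single gene rests on these sequences. The hairpins of the 2 Mir101 genes are shown because they held the longest stretch common to any members, 20 bases, here in capitals.
Mir101a: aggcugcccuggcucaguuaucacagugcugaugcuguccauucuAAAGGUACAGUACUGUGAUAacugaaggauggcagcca
Mir101b: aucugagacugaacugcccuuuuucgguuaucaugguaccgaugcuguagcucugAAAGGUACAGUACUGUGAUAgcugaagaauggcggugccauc

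None of the 5 genes shared a stretch of 22 bases with any other annotated miRNA gene, whereas 904 of the 1894 genes with a name did. Only annotated miRNA genes, and for the mature arms other annotated transcripts, were searched. Matches elsewhere in the genome were not tested, so these values do not show that a read maps to a single locus. The longest part of a member's mature arm that occurred in another miRNA gene was 19 of the 21 bases of miR-101a-3p, bases 2 to 20, which are the whole annotated mature sequence of Mir101c on chromosome 9. Mir101c had no row in the tables and was not analysed here. A read trimmed to those 19 bases would match both loci, and reads that map to several loci are totalled apart from the genes, so it would not be in the count of Mir101a. The part of such reads in its level was not tested. For miR-101b-3p the longest stretch in another miRNA gene was 16 of its 19 bases, in Mir101a. For miR-148a-3p and miR-148b-3p it was 12 bases, and for miR-152-3p it was 11. These stretches allow no mismatch. Over their 18 aligned bases, miR-101a-3p and miR-101b-3p differ by A16G alone. The mismatches allowed in mapping are not known, and the part of reads placed on the wrong Mir101 gene was not tested. In other annotated transcripts, read on either strand, 17 bases of miR-101b-3p occurred in Gm26753 and 17 bases of miR-152-3p in 1700009C05Rik.

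The genes lie on separate chromosomes and none sits in a miRNA cluster. Mir148b (ENSMUSG00000065560.1) lies at chr15:103285125-103285221 on the plus strand of GRCm38, in an intron of Copz1. Mir152 (ENSMUSG00000065515.1) lies at chr11:96850393-96850465 on the plus strand, in an intron of Copz2. Copz1 and Copz2 are paralogous genes for the zeta subunits of the COPI vesicle coat. Mir148a (ENSMUSG00000065505.1), at chr6:51269812-51269910 on the minus strand, overlapped no other annotated gene, and its nearest protein-coding gene was Nfe2l3 at 162760 bases.

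Mir101b (ENSMUSG00000065556.1) lies at chr19:29135279-29135375 on the plus strand, in an intron of Rcl1, which encodes a protein of ribosomal RNA processing. Mir101a (ENSMUSG00000065451.1) lies at chr4:101346945-101347027 on the minus strand and overlapped an exon of the long non-coding RNA E130102H24Rik on the same strand. The nearest other miRNA gene to any member was Mir6963, which lies 65234 bases from Mir148b on the other strand.

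The libraries held 4158686 gene-strand counts in replicate 2 and 5060112 in replicate 1. Levels are counts per 1000000 gene-strand counts (CPM), and they are not divided by length, since a small RNA read spans a mature arm. Reads that mapped to several loci were 43.3% of all reads in replicate 2 and 40.5% in replicate 1. All reads of the 5 genes were on the annotated strand, with 0 on the other strand in both libraries. Of the neural marker genes, 9 of 10 had a row and all 9 had counts, summing to 22637 CPM in replicate 2 and 23314 CPM in replicate 1, although 7 of the 9 share 22 bases with another gene.

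The Mir101 genes were the more abundant family and Mir101b led it. Mir101b had 6986 counts in replicate 2 and 8326 in replicate 1, which is 1680 and 1645 CPM, or 1663 ± 24.4 CPM (SD, n = 2). It ranked 71 of 1973 genes in replicate 2 and 78 in replicate 1. Mir101a had 2466 counts in replicate 2 and 2928 in replicate 1, or 593 and 579 CPM, with a mean of 586 ± 10.1 CPM (SD, n = 2). The CPM of both Mir101 genes was close in the 2 pools. The family held 0.227% of all gene-strand counts in replicate 2 and 0.222% in replicate 1.

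The Mir148/Mir152 family was lower, and its genes spread over a wider range of levels. Mir148b had 757 counts in replicate 2 and 929 in replicate 1, or 182.0 and 183.6 CPM, with a mean of 183 ± 1.11 CPM (SD, n = 2). Mir148a had 715 counts in replicate 2 and 597 in replicate 1, or 172 CPM in replicate 2 and 118 CPM in replicate 1, with a mean of 145 ± 38.1 CPM (SD, n = 2). Mir152 was the lowest, with 126 counts in replicate 2 and 107 in replicate 1, or 30.3 and 21.1 CPM, and a mean of 25.7 ± 6.47 CPM (SD, n = 2). It ranked 261 in replicate 2 and 281 in replicate 1. Mir148b stood at an even level in the 2 pools, whereas Mir148a and Mir152 had the higher CPM in replicate 2.

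The order Mir101b, Mir101a, Mir148b, Mir148a, Mir152 was the same in both libraries. Mir101b exceeded Mir101a 2.83-fold in replicate 2 and 2.84-fold in replicate 1, and Mir101a exceeded Mir148b 3.26-fold in replicate 2 and 3.15-fold in replicate 1. Mir148b and Mir148a were the closest neighbours. They differed 1.06-fold in replicate 2, where their exact Clopper-Pearson 95% intervals of 169 to 195 CPM and 160 to 185 CPM overlapped, and 1.56-fold in replicate 1, where the intervals of 172 to 196 CPM and 109 to 128 CPM did not. Their order is therefore not resolved in replicate 2. Mir148a exceeded Mir152 5.67-fold in replicate 2 and 5.58-fold in replicate 1. Intervals cover counting error only, and how well the library protocol captures each of these sequences was not measured, which limits any ratio between genes. The ratio of Mir101b to Mir101a also rests on how reads were placed between them, which was not tested.

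**Figure D1:**
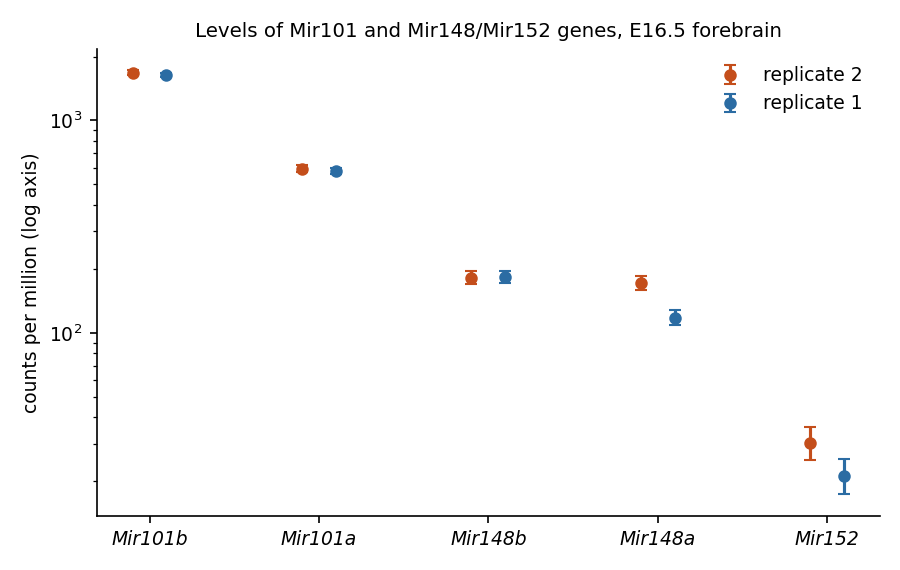
CPM on a log axis for the 5 genes, with a point for each library and exact Clopper-Pearson 95% intervals that cover counting error. Mir101b lies at 1680 CPM in replicate 2 and 1645 CPM in replicate 1 and Mir152 at 30.3 and 21.1 CPM, and the libraries separate visibly for Mir148a and Mir152.

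Shares within a family do not depend on how the libraries are scaled. Mir101b took 73.9% of the Mir101 counts in replicate 2 and 74.0% in replicate 1, with exact 95% intervals of 73.0% to 74.8% and 73.2% to 74.8%. The share of Mir101a was 26.1% in replicate 2 and 26.0% in replicate 1, so the balance of the 2 genes differed by 0.0723 percentage points between the pools. The aligned 3p arms of the 2 genes differ by A16G alone, and the intervals leave out reads placed on the wrong gene. Within the Mir148/Mir152 family the balance differed more. Mir148a took 44.7% (exact 95% interval 42.3% to 47.2%) in replicate 2 and 36.6% (34.2% to 38.9%) in replicate 1. Mir148b took 47.4% (44.9% to 49.9%) in replicate 2 and 56.9% (54.4% to 59.3%) in replicate 1. Neither pair of intervals overlapped. Mir152 took 7.88% in replicate 2 and 6.55% in replicate 1, with overlapping intervals of 6.61% to 9.32% and 5.40% to 7.86%. The spread between 2 pools, which the intervals leave out, cannot be judged from a single pair of libraries.

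**Figure D2:**
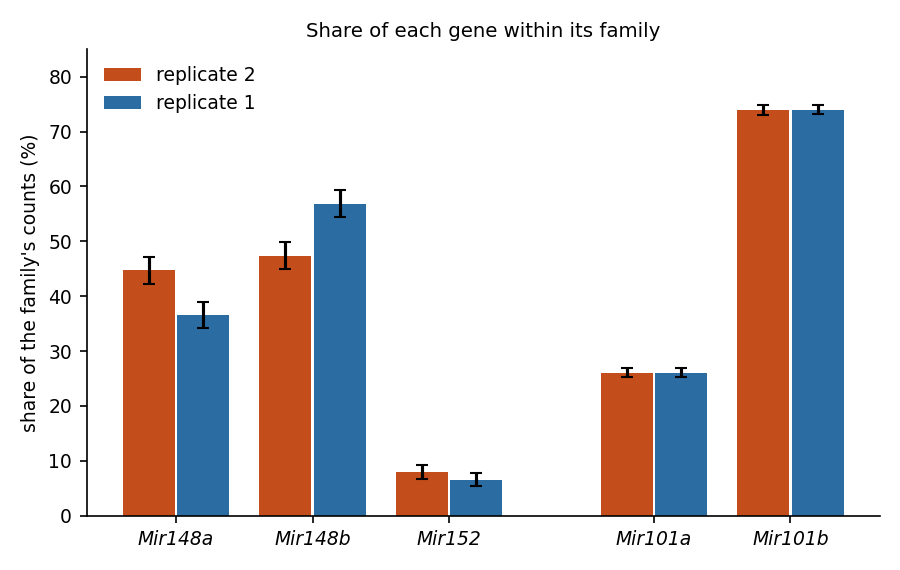
Share of each gene in the summed counts of its family, in percent, for each library, with exact Clopper-Pearson 95% intervals. The Mir101 bars are level at 26.1% and 26.0% for Mir101a, while Mir148a is at 44.7% in replicate 2 and 36.6% in replicate 1.

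Mir148a and Mir152 were higher in replicate 2 than in replicate 1 under both scalings of the libraries, and Mir148b was not called under either. TMM, the trimmed mean of M values, sets the expected ratio from the bulk of the tested genes. With it, Mir148a had a log2 ratio of 0.69, replicate 2 over replicate 1 (exact 95% interval 0.53 to 0.85), with a p of 4.04e-17 in the exact binomial test after Benjamini-Hochberg adjustment over all tested genes. Mir152 had a log2 ratio of 0.66 (0.28 to 1.05) and an adjusted p of 0.00149 by the same exact test. Mir148b had 0.13 (-0.0087 to 0.27), and the adjusted p of the exact test was 0.126. With unscaled totals the ratios were 0.54 for Mir148a and 0.52 for Mir152. Over the alternatives tried, the adjusted p of the exact test ran from 1.82e-17 to 4.72e-11 for Mir148a and from 0.000970 to 0.0157 for Mir152, the highest of each with unscaled totals.

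The Mir101 genes were called higher in replicate 2 with TMM and not with unscaled totals. Mir101a had a log2 ratio of 0.18 (0.10 to 0.26) and Mir101b of 0.17 (0.13 to 0.22), with adjusted p of 1.91e-05 and 5.84e-13 by the exact binomial test. TMM shifts every log2 ratio by 0.14 relative to unscaled totals, and with unscaled totals the ratios were 0.035 for Mir101a and 0.030 for Mir101b. Over the alternatives tried, the adjusted p of the exact test ran from 8.09e-06 to 0.520 for Mir101a and from 5.78e-14 to 0.327 for Mir101b. Of the 5 genes, 4 were called with TMM, where 45.3% of all tested genes were, and 2 with unscaled totals, where 47.6% were. All of them were higher in replicate 2.

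These counts stand beside a background in which many genes were called. With TMM, 23.4% of the 466 tested genes were called higher in replicate 2 and 21.9% lower, which is 109 and 102 genes. With unscaled totals, 14.4% were called higher and 33.3% lower, which is 67 and 155 genes. The 466 genes include many with few counts, for which the test can seldom make a call. All 5 family genes had a summed count of at least 100. When only the 299 genes that reached this sum were tested and adjusted, 106 were called higher and 97 lower with TMM. The share over the 466 is therefore too low a background for the 5. No matching count is given for unscaled totals. The test takes reads as independent and compares 2 libraries, not conditions. By size, 19 of the 273 genes that reached 100 counts in each library had a larger absolute log2 ratio than Mir148a with TMM, and 24 had a larger one than Mir152. For Mir101a, Mir101b and Mir148b those numbers were 163, 167 and 196. With unscaled totals they were 55 for Mir148a and 62 for Mir152, and 244, 247 and 259 for Mir101a, Mir101b and Mir148b. The median log2 ratio of the 5 genes was 0.18 with TMM, against 0.01 over all tested genes, and 0.04 against -0.14 with unscaled totals.

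**Figure D3:**
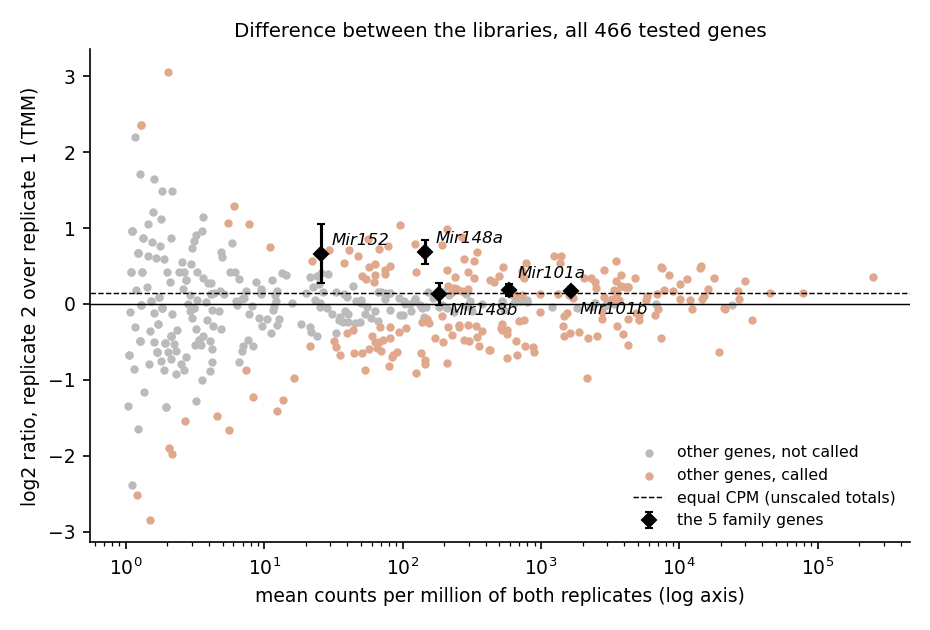
Log2 ratio of replicate 2 over replicate 1 with TMM against mean CPM on a log axis, for the 466 tested genes, with exact 95% intervals for the 5 family genes, and a dashed line where the CPM of both libraries is equal. Mir148a at 0.69 and Mir152 at 0.66 stand above most genes of their level, while Mir101a, Mir101b and Mir148b lie near the dashed line.

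Some markers of other cell types were also called different between the libraries. Such calls were frequent among all 466 tested genes, at 45.3% with TMM and 47.6% with unscaled totals. Of the 299 genes whose counts summed to 100 or more, 106 were called higher and 97 lower with TMM. A call for a marker therefore does not by itself set that marker apart from other genes. With TMM, all 3 epithelial markers were called higher in replicate 2, with summed levels of 3287 CPM in replicate 2 and 2749 CPM in replicate 1, though with unscaled totals Mir203 was no longer called. The endothelial marker Mir126a, which shares 22 bases with another gene, was higher, at 18999 CPM in replicate 2 and 16611 CPM in replicate 1. Of the 2 myeloid markers with a row, Mir223 was higher, and they summed to 222 CPM in replicate 2 and 167 CPM in replicate 1. All 3 markers of the Hox clusters, which are active in hindbrain and posterior body, were lower, with 482 CPM in replicate 2 and 753 CPM in replicate 1, as was the liver marker Mir122, at 64.9 CPM in replicate 2 and 97.8 CPM in replicate 1. Of 3 erythroid markers, 1 was higher and 1 lower, with sums of 240.5 CPM in replicate 2 and 305.9 CPM in replicate 1. Mir451a and Mir486 among them share 22 bases with another gene. Of 3 markers of choroid plexus and ciliated cells, 1 was higher and 1 lower, with sums of 5042 CPM in replicate 2 and 4903 CPM in replicate 1. Of the 9 neural markers with a row, 3 were higher and 1 lower. Of the muscle markers Mir206 was higher with TMM but not with unscaled totals, at 25.2 CPM in replicate 2 and 18.8 CPM in replicate 1, and Mir1a-1 and Mir133a-1 had 0 counts and share 22 bases with another gene. The part of these cell types in the levels of Mir148a and Mir152 was not tested.

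The genes nearest to each family gene in mean CPM did not share their difference between the pools in every case. Mir532 and Mir434 flanked Mir101b and had log2 ratios with TMM of 0.08 and -0.38. Mir325 and Mir350 flanked Mir101a, with 0.14 and 0.21. Mir363 and Mir874 flanked Mir148b, with -0.05 and -0.44. Mir346 and Mir383 flanked Mir148a, at 145.5 and 144.7 CPM, and their log2 ratios of -0.74 and -0.79 were opposite in sign to that of Mir148a. Gm23134 and Mir8112 flanked Mir152, with 0.40 and 0.01, and neither was called. With 2 libraries, this likeness is one of mean level over both and of nothing else.

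Other miRNA genes known for targets among chromatin regulators covered a far wider range of levels than the 5 family genes. All 14 had a row and counts, and 3 of them, Mir137, Mir203 and Mir449a, are also among the markers above. Mir26b, whose family targets Ezh2, reached 16508 CPM in replicate 2 and 15945 CPM in replicate 1, far above Mir101b. Mir26a-1 and Mir26a-2 of the same family had mean levels of 6.27 and 35.3 CPM, far below Mir101b. Both share 22 bases with another gene, so their levels are uncertain. Mir137, a regulator of neuronal maturation, had 11457 CPM in replicate 2 and 13239 CPM in replicate 1. Mir29a, of the family that targets the de novo methyltransferases Dnmt3a and Dnmt3b, had 253 CPM in replicate 2 and 245 CPM in replicate 1, between Mir101a and Mir148b.

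The lowest of the 14 genes was Mir29b-1, at 3.13 CPM in replicate 2 and 1.19 CPM in replicate 1. It is among the 7 of the 14 genes that share 22 bases with another miRNA gene, and its level is uncertain for that reason. With TMM, 4 of the 14 were called higher in replicate 2 and 5 lower, and with unscaled totals 2 were higher and 5 lower. Calls were common over all tested genes too, at 45.3% with TMM and 47.6% with unscaled totals. Mir138-1 and Mir138-2, also named as regulators of Ezh2, had log2 ratios of -0.56 and -0.61, and both share 22 bases with another gene. The median log2 ratio of the 14 genes was 0.04.

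**Figure D4:**
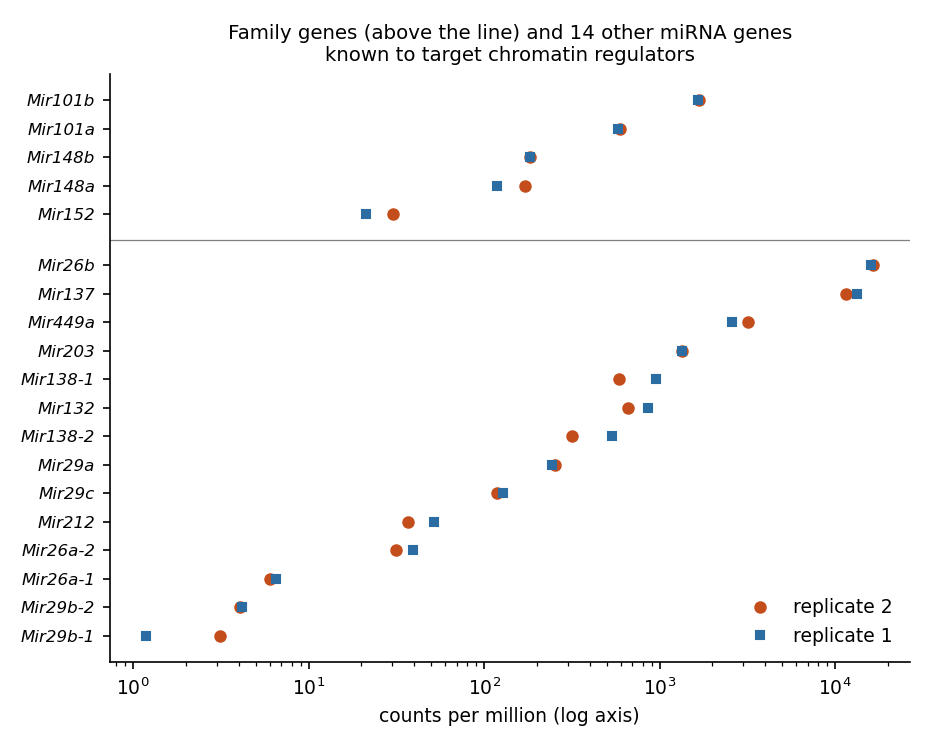
CPM on a log axis in each library for the 5 family genes, above the line, and 14 other miRNA genes with known targets among chromatin regulators, below it. The family genes span 21.1 to 1680 CPM and the others 1.19 to 16508 CPM.

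Seed matches in the annotated 3′ UTRs connect these counts to the regulators, as a description of sequence only, since no mRNA was measured here. The motif for miR-148 and miR-152 was TGCACTG, for miR-101a GTACTGT and for miR-101b TACTGTA, searched on the transcript strand of the longest annotated 3′ UTR of each gene in GENCODE M21. The last 2 motifs overlap by 6 letters, and a stretch GTACTGTA holds both. Matches in the shortest UTRs are shown with the motif in capitals, since a chance match is least frequent there. The coordinates given with them are on GRCm38 and cover the whole printed stretch, not the motif alone.
Dnmt1, seed of miR-148a: acccagagccccacgTGCACTGa
Uhrf1, seed of miR-148a: ctggttttcagagagTGCACTGa
Ezh2, seed of miR-101a, upstream: cttcaggaaccttgaGTACTGTg
Ezh2, seed of miR-101a, downstream: ttctgaatttgcaaaGTACTGTa
Eed, seed of miR-101a: ttgtttacattctttGTACTGTc

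The 3′ UTR of Dnmt1 has 312 bases and held 1 match to the seed of miR-148a, within chr9:20907491-20907513 on the minus strand, starting at base 23 of the UTR and followed by A. A match to that seed occurred in 3.14% of the 2136 UTRs within 25% of that length. Uhrf1, which brings Dnmt1 to hemimethylated DNA, held 1 match within chr17:56323100-56323122 on the plus strand, against 9.99% of UTRs of its length class. Ezh2 held none for this seed.

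The 3′ UTR of Ezh2 has 402 bases and held 2 matches to the miR-101a seed, within chr6:47530475-47530497 and chr6:47530420-47530442 on the minus strand. At least 1 match occurred in 2.77% of the 2278 UTRs of its length class. The downstream match is followed by A and also holds the motif of miR-101b, so that both annotated seeds match there. Eed, another core subunit of the same complex, held 1 match to the miR-101a seed in 410 bases, within chr7:89954778-89954800 on the minus strand, against 2.64% of UTRs of that length. Suz12, the remaining core subunit, held no match to any of the 3 motifs, and neither did Dnmt3b and Ezh1.

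Of the 15 regulators examined, 4 held a match for miR-148a, miR-148b and miR-152, 6 for miR-101a and 8 for miR-101b. Over all 21005 genes with a 3′ UTR the shares were 12.7%, 9.38% and 12.2%. These shares are not adjusted for length, and all of the regulators but Dnmt1, Ezh2 and Eed had a UTR longer than the median of 961 bases over all genes. Longer UTRs hold a match more often. In the length class of Tet1, with 7962 bases, the shares were 45.2% for miR-148a, 39.7% for miR-101a and 50.4% for miR-101b, so the shares over all genes are too low a background for most of the 15. A match is not evidence that a site is used, and these regulators were picked as likely targets.

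**Figure D5:**
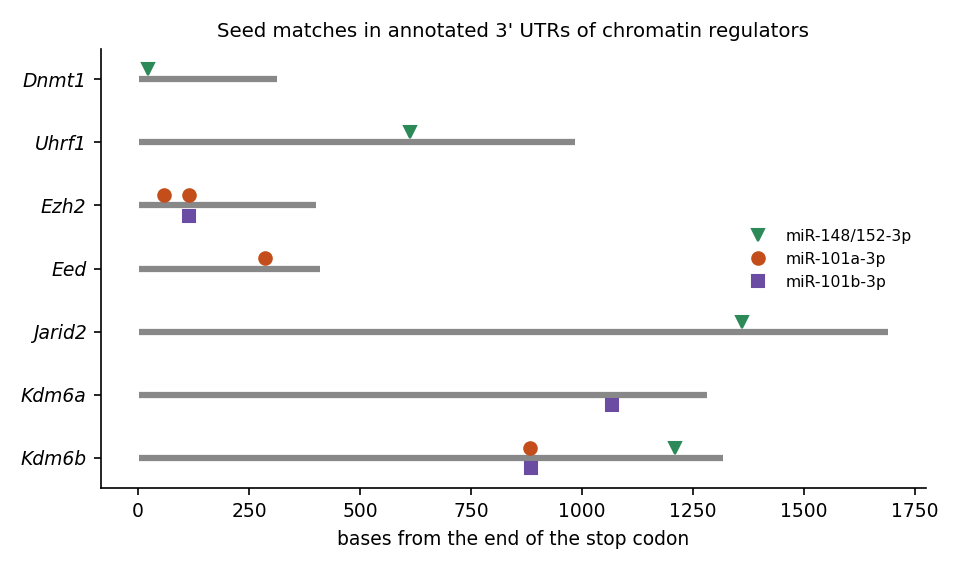
Positions of the seed matches, in bases from the end of the stop codon, in the 7 regulators with a match and a 3′ UTR of 312 to 1691 bases, drawn as grey lines to scale. Dnmt1 has a single match to the seed of miR-148a at 23 bases, and Ezh2 has 2 miR-101a matches at 59 and 114 bases, with a miR-101b match that overlaps the one at 114.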

How the data were processed

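MicroRNA-seq was available for 2 libraries. The deposited tables hold raw read counts per gene in 3 columns, without regard to strand and for each strand, on mm10 with GENCODE M4, per the deposited file descriptions. No aligner, counter or trimming step is given in the sources used here. Of the strand columns, the one holding more counts was used as that of the genes, and 4 rows of unassigned reads were left out of totals. Per library these rows held, in replicate 2 and replicate 1, 43.3% and 40.5% of reads mapping to several loci, 15.2% and 19.1% unmapped and 2.82% and 2.50% outside the genes on either strand.

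Names and positions came from GENCODE M21, and mature and hairpin sequences from RefSeq (GRCm38.p6). Names were found for 1894 genes. A sum of 10 counts over both libraries was required for testing, which used a two-sided exact binomial test in SciPy 1.17.1, with TMM factors from edgeR 4.0.16 computed over the same genes, and Benjamini-Hochberg adjustment at 0.05. Log2 ratios add 0.5 to each count. A quasi-likelihood fit in edgeR is not possible with a single group. The alternatives changed the strand column, denominator, scaling, count filter, pseudocount and genes tested, and left out each library. A count of 0 allows up to 0.721 CPM in replicate 2 and 0.593 CPM in replicate 1, taking 3 counts as the limit.

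The named genes are the members, the genes ranked directly above and below each by mean CPM, and fixed lists of miRNAs, markers and chromatin regulators. The matches of 1 regulator are not reported here by name. Members and lists were chosen with earlier results of these data known. The labels call the pools biological replicates and give no litter or day, so the spread between them may be partly technical.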

Additional observations from a re-analysis of the deposited data

How the results depend on the processing

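The 5 genes held 0.260% ± 0.00780 of the gene-strand counts (SD, n = 2), from 0.255% to 0.266% with either library alone. The share was 0.347% in a total without Mir99a, the most abundant gene, 0.0977% of all reads of the tables and 0.288% in a total without genes that share 22 bases. These differences follow from the denominator alone. Shares within the families were the same with unstranded counts, since no member had reads on the other strand. With unscaled library totals, 67 genes were higher in replicate 2 and 155 lower, against 109 and 102 with TMM, and 2 of the 5 genes were called in place of 4. The log2 ratio of Mir148b was then -0.012, against 0.13 with TMM, and it was called under neither. Median-of-ratios size factors, unstranded counts, a total without Mir99a, summed count filters of 1 and 100, genes without shared stretches only and a pseudocount of 1 each left 4 of the 5 genes called higher. No paired analysis was possible because both libraries belong to a single group. The count of Mir152, 126 in replicate 2 and 107 in replicate 1, gives its log2 ratio the widest interval of the 5 genes.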

Other observations

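Among the regulators with long 3′ UTRs, the ten-eleven translocation genes Tet1, Tet2 and Tet3, which oxidise methylated cytosine, held no match to the seed of miR-148a and held 2, 3 and 1 matches, in that order, to the miR-101b seed. Tet2 also held 1 match to the miR-101a seed, which overlaps one of its miR-101b matches. In the length classes of Tet1, Tet2 and Tet3, in that order, 50.4%, 24.4% and 39.8% of UTRs held a miR-101b match. A match to the seed of miR-148a occurred in 45.2%, 24.0% and 38.9% of them, so matches and their absence are both common at these lengths.

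The hairpins had from 73 bases (Mir152) to 99 bases (Mir148a), against a median of 79 bases over 1005 hairpins of the RefSeq table. The GC content of the Mir152 hairpin was 61.6%, and that of the other members lay between 45.4% and 49.4%, against a median of 51.7%.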
